A study of Saccharomyces cerevisiae with 36 samples.

Results

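The comparison described here was between *mip6Δ* and WT yeast that had never been heated, 3 libraries of each strain among the 36 libraries of the series. Its members were every *mip6Δ* and WT library labelled as no-memory and 0 min. *mip6Δ* cells carried mip6::KANMX4 in the BY4741 background (MATa his3Δ1 leu2Δ0 met15Δ0 ura3Δ0), and WT cells were BY4741 itself, so that the auxotrophies were shared by both strains. All 6 cultures grew in rich medium (YPD) at 30°C to an OD600 of 0.7 and were refreshed with medium at 30°C before sampling. The other 30 libraries, used only for comparison, came from the same 2 strains at 15 and 20 min of a first heat shock at 39°C, after such a heat shock of 20 min and 60 min of recovery (recovered), and at 15 and 20 min of a second heat shock, with 3 libraries per group. One recovered *mip6Δ* library, replicate 2, carries a time label that disagrees with its title, which was followed here. Each overnight culture was split between the heated and unheated flasks, so that never-heated and recovered libraries of 1 strain may share a culture, and later times may be repeat samples of the same flasks. The deletion strain came from a collection, and whether the 3 *mip6Δ* cultures started from separate clones was not given in the sources used here.

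Mip6 is an RNA-binding protein with RNA recognition motifs that binds Mex67, the main mRNA export receptor of budding yeast, and *PES4* is its closest relative in that genome. It has been linked to the mRNAs of genes that Msn2 and Msn4 control. These zinc finger transcription factors bind the stress response element AGGGG and switch on genes for protection from stress and for storage carbohydrates, whereas Hsf1 drives the chaperone genes. Genes for ribosome biogenesis are known to run the other way in yeast: they are high in fast growth and low under stress. The question for these 6 libraries was which of these programmes differed between the strains before any heat shock.

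Libraries held 30897916, 29620004 and 35220664 counts in *mip6Δ* and 28270651, 32816754 and 28818997 in WT, within the range of 28270651 to 42233578 over all 36. Of 6403 genes in the table, 6038 passed the filter on low counts and were tested with edgeR's quasi-likelihood test. Values below are CPM, the counts of a gene scaled to a common library total after TMM, and differences are log2 of *mip6Δ* over WT with their standard error (SE). The median difference over all genes tested was 0.004. The 7 MATa-specific genes summed to 1570 to 2299 CPM in *mip6Δ* and 1744 to 2308 CPM in WT. The MATα-specific genes *STE3* and *SAG1* summed to 53.1 to 64.9 CPM in *mip6Δ* and 53.3 to 56.7 CPM in WT, most of it from *SAG1*, since *STE3* alone stood at 4.57 to 6.83 CPM in *mip6Δ* and 5.59 to 6.94 CPM in WT. Median differences of the nuclear chromosomes lay between −0.01 and 0.01, so no nuclear chromosome stood apart from the rest. Reads of *HIS3*, a gene that the his3Δ1 allele of both strains deletes only in part, came to 74.4 to 79.5 CPM in *mip6Δ* and 79.7 to 96.3 CPM in WT. The 7 coding genes of the mitochondrial genome looked at were at or near 0 in both strains of these poly-A selected libraries and were not tested. Only 4 mitochondrial genes passed the filter, with a median difference of −1.34. *LEU2*, *MET17* and *URA3* were not analysed here.

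*MIP6* itself was the first check of the labels. Its reading frame (*YHR015W*) runs over 1980 bases at chrVIII:134554-136533 on the plus strand of R64 (sacCer3). The first and the last 60 coding bases are printed from the RefSeq genome to show what lies at the ends of the deleted gene, with the start and the stop codon in capitals.
MIP6, first 60 coding bases: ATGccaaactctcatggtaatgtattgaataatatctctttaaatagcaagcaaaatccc
MIP6, last 60 coding bases: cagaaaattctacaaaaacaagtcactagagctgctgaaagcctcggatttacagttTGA

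*MIP6* had 0, 0 and 0 counts in *mip6Δ* and 165, 165 and 134 counts in WT, which was 5.85 ± 0.783 CPM in WT (SD, n = 3). With a floor of 3 counts per library, it was at least 49.9-fold lower in *mip6Δ* (edgeR, adjusted p = 5.9e-06). The groups did not overlap, and *MIP6* had no read in any of the 18 *mip6Δ* libraries of the series, against 134 to 626 counts in the 18 WT libraries. It was a gene of low level even in WT.

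*MIP6* was the only gene that passed an adjusted p of 0.05 in never-heated cells in the edgeR fit to all 36 libraries, 0.0166% of those tested. At an unadjusted p under 0.05, 152 genes (2.52%) were higher and 217 genes (3.59%) were lower in *mip6Δ*. All 3 *mip6Δ* libraries lay above all 3 WT libraries in 350 genes (5.80%) and below them in 309 genes (5.12%). Differences were above 0 in 51.4% and below 0 in 48.6% of genes. DESeq2 called 7 genes on the same counts. With the replicate number as a block, edgeR called 7 of the 6038 genes. It called 35 of 5886 in a fit to the 6 libraries alone with that block, added after seeing the data. limma on the log2 of the authors' normalized counts called 18 of 6172 genes (0.292%), 5 higher and 13 lower in *mip6Δ*. *MIP6* was not in that table, which lacked 231 genes of the count table. Among these were *HXT2*, *HXT4*, *TMA10*, *SSA4*, *BTN2*, *LEU1* and *SAM1*, so limma did not test them. The authors removed hidden batch effects from that table, and whether this narrowed its spread within groups was not tested. On simulated libraries of the same size, edgeR recovered 86% of genes with a 1.5-fold change and 98% of those with a 2-fold change. Only genes of at least 10 CPM were changed there, and the libraries were drawn as independent, without differences shared by replicate number. In the real libraries *HXT7*, 2.54-fold lower in *mip6Δ*, was not called (edgeR, adjusted p = 0.51). The simulation therefore does not exclude changes of 2-fold in these data.

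**Figure D1:**
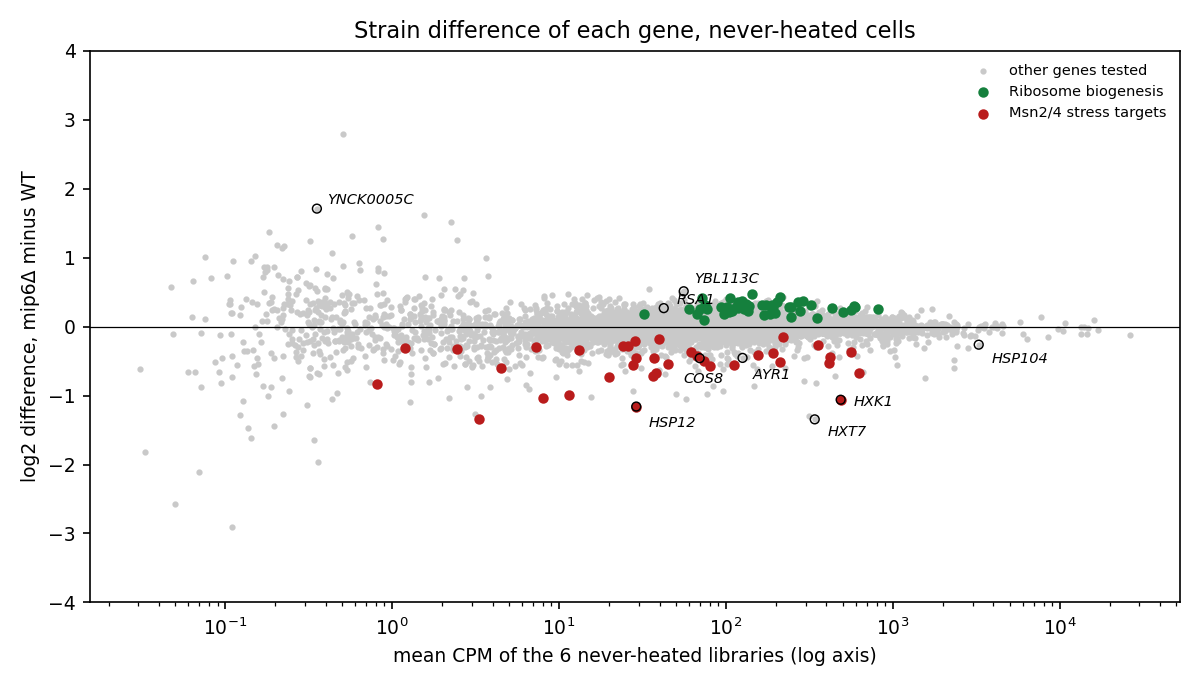
Strain difference of each gene in never-heated cells against its mean level. The horizontal axis is the mean CPM of the 6 libraries on a log axis, the vertical axis is the log2 difference of *mip6Δ* minus WT, and each point is a gene, with *MIP6* and 1 further gene beyond the axis left out. The 48 ribosome biogenesis genes (green) all lie above 0 and 36 of 37 Msn2/4 targets (red) lie below it.

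The genes on either side of *MIP6* were looked at because a deletion cassette can affect its neighbours. *YSC84*, an actin-binding protein gene that lies 347 bases from *MIP6* and faces it from the opposite strand, had 66.4, 63.7 and 72.1 CPM in *mip6Δ* and 89.0, 80.8 and 100.2 CPM in WT. These did not overlap, and the difference was −0.42 ± 0.14 (SE, edgeR, adjusted p = 0.62). *YSC83*, the next gene, had 48.8, 46.0 and 44.7 CPM in *mip6Δ* and 52.8, 53.9 and 53.4 CPM in WT, again without overlap (−0.20 ± 0.09, adjusted p = 0.79). Neither passed the test over all genes in the fit to all 36 libraries. *YSC84* was called in a fit to the 6 libraries alone with the replicate number as a block, added after seeing the data (edgeR, adjusted p = 0.048). *ARG4*, an arginine synthesis gene 3477 bases away, had 126, 134 and 142 CPM in *mip6Δ* and 145, 138 and 159 CPM in WT, which overlapped. *VPS29*, *ARD1*, *SPO13*, *DED81* and *YHR020W* overlapped between the strains too, and the non-coding RNA genes *YNCH0004C* and *YNCH0005W* stayed below the filter with 1 to 3 counts. Of the 10 neighbours, 8 were tested, and 2 of these had an unadjusted p under 0.05 and were lower, against 3.59% of all genes. In recovered cells *YSC84* differed by −0.58 ± 0.14, and at 20 min of the second heat shock by 0.01 ± 0.14. Over the mean of the other 5 conditions, 7 of the 8 tested neighbours were below 0, against 3299 of 6038 genes. *ARG4* alone of them was called there, at −0.19 ± 0.04 (SE, edgeR, adjusted p = 0.034). Those libraries may be repeat samples of the same flasks, which the fit takes as independent.

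**Figure D2:**
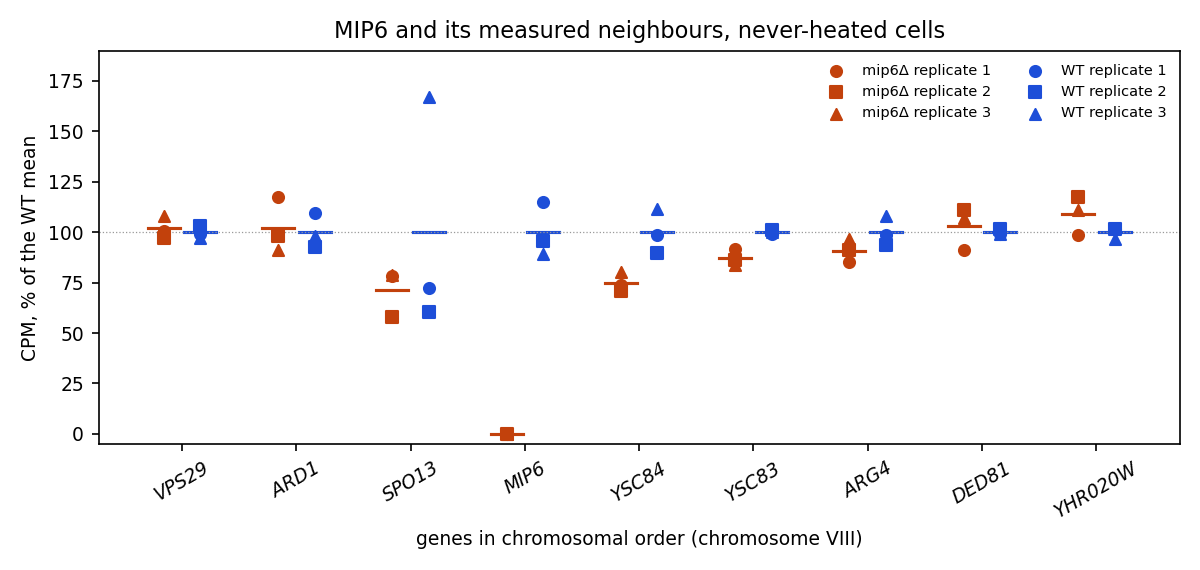
Levels of *MIP6* and its tested neighbours in the 6 never-heated libraries, in chromosomal order. The vertical axis is CPM as a percentage of the WT mean of the gene, points are libraries (*mip6Δ* left of WT for each gene), and short lines are means of 3 libraries. *MIP6* is at 0 in *mip6Δ*, and *YSC84* and *YSC83* are the neighbours whose strains do not overlap.

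Heat shock genes differed among libraries of the same strain, which bears on every stress list below. *HSP104*, a disaggregase and target of both Hsf1 and Msn2/4, had 4589, 2505 and 1822 CPM in *mip6Δ* and 5140, 3455 and 2099 CPM in WT. *SSA4*, a stress-induced Hsp70, had 2447, 1144 and 522 CPM in *mip6Δ* and 2807, 1490 and 799 CPM in WT. In both strains replicate 1 was the highest and replicate 3 the lowest, and the strains overlapped. *BTN2*, a protein sorting chaperone of the Hsf1 set, had 3166, 1369 and 889 CPM in *mip6Δ* and 2733, 1722 and 991 CPM in WT. Of the 25 Hsf1 targets, 23 in *mip6Δ* and 25 in WT were highest in replicate 1, and 23 in *mip6Δ* and 25 in WT were lowest in replicate 3. The median ratio of replicate 1 over replicate 3 was 1.62 in *mip6Δ* and 1.53 in WT. Never-heated cells had more *HSP104* than most recovered cells, which had 173 to 596 CPM in *mip6Δ* and 180 to 2799 CPM in WT, and less than cells at 15 min of the first heat shock, which had 15608 to 21744 CPM in *mip6Δ* and 15661 to 19691 CPM in WT. One recovered library, WT replicate 1, stood apart from its group with the 2799 CPM. The part of these library differences in the strain differences below was not tested, apart from the values given without single libraries.

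**Figure D3:**
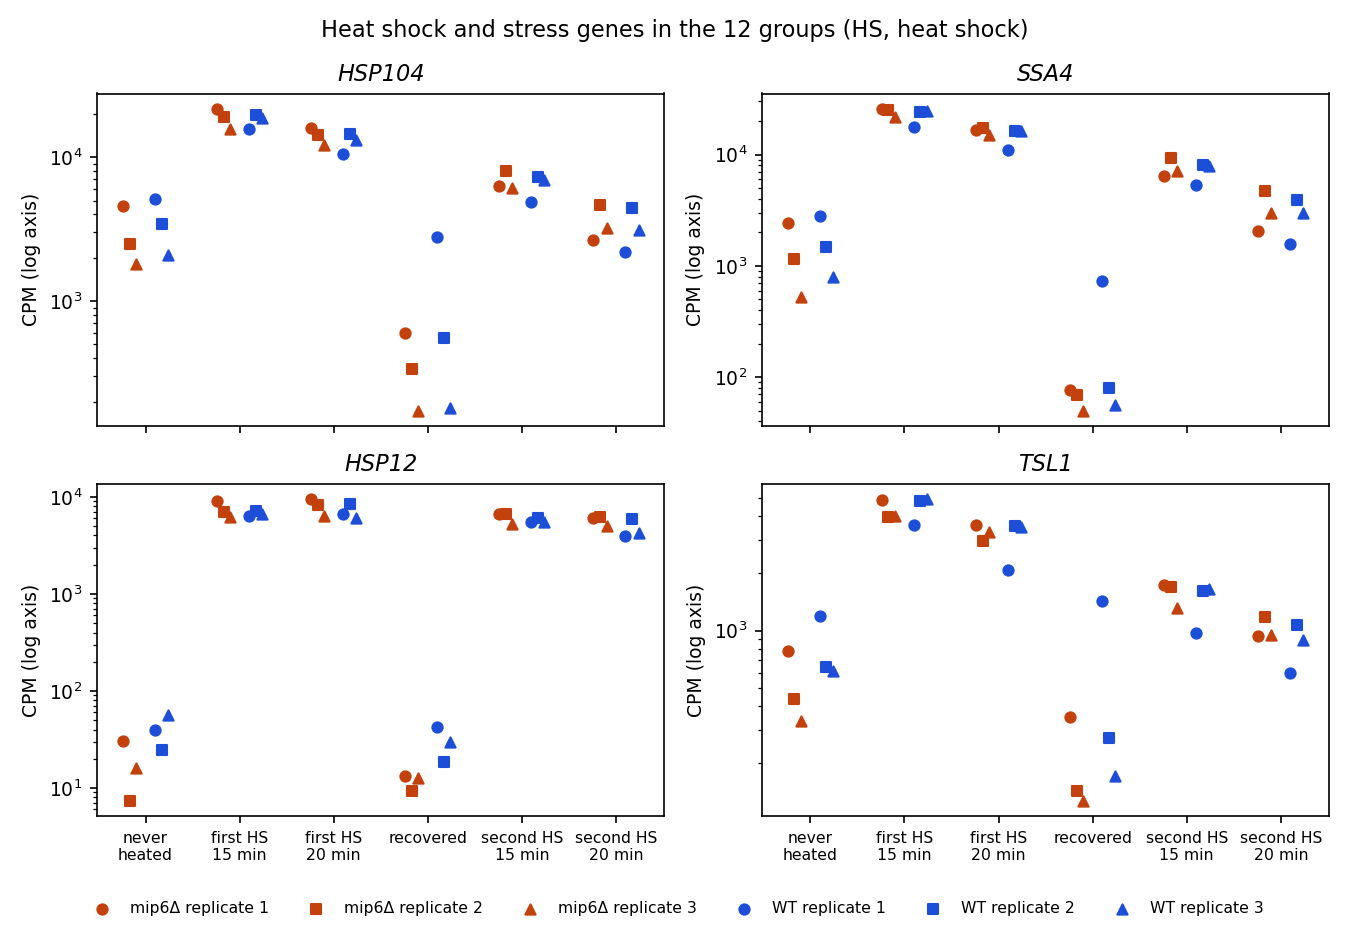
Levels of *HSP104*, *SSA4*, *HSP12* and *TSL1* in all 36 libraries. The vertical axes are CPM on a log axis, the horizontal axes are the 6 conditions, and each point is a library, with *mip6Δ* left of WT and replicate 1 to 3 by marker. In never-heated cells *HSP12* has 7.31 to 30.5 CPM in *mip6Δ* and 24.5 to 56.7 CPM in WT, far below the heat shock levels of 3954 CPM or more.

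Most targets of Msn2 and Msn4 had lower values in never-heated *mip6Δ* than in WT. None passed the adjusted test of edgeR fitted to all 36 libraries, or to the 6 alone without a replicate block. Of 37 genes, all tested, 36 had a difference below 0, against 48.6% of all genes, and 17 did not overlap and were lower, against 5.12% of all genes. At an unadjusted p under 0.05, 16 were lower, against 3.59% of all genes, and 0 higher, and DESeq2 and limma each called 1 member, *HOR7*. In a fit to the 6 never-heated libraries alone, 21 were lower at an unadjusted p under 0.05, against 3.08% of all genes. With the replicate number as a block in that fit, added after seeing the data, 10 members were called, all lower. Over all genes, 33 of 5886 were called lower there. The median difference was −0.45, with a range of −1.34 to 0.08. The count of 16 depended on single libraries. It was 5 without *mip6Δ* replicate 2, 9 without *mip6Δ* replicate 3 and 9 without WT replicate 3. Without replicate 1, 2 or 3 of both strains, 28, 7 and 2 members had such a p and were lower, while the median stayed between −0.51 and −0.43. Over all genes tested, the number lower at such a p also fell, from 368 of 6041 to 181 of 6043 and 64 of 6047. The genes are on the list for what is known of their control, which rests in part on their promoter motif. Within 300 bases before the coding start, AGGGG or its complement CCCCT, on either strand, was found in 28 of 37 members (75.7%), against 22.4% of 5881 promoters of tested nuclear coding genes. The promoters of *HSP12*, with 2 matches, and *GLK1*, with 3, are shown beside that of *HXK1*, which had a difference of like size and no match. Sequences are from the RefSeq genome (R64), read on the strand of the gene up to the base before the start codon, with AGGGG and CCCCT in capitals.
HSP12, chrVI:106956-107255, plus strand: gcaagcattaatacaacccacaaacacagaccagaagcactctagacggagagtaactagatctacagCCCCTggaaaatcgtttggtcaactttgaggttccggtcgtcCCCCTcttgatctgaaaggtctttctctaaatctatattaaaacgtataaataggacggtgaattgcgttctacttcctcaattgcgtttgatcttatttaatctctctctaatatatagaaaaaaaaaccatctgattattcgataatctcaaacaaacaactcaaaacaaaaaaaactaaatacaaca
GLK1, chrIII:50538-50837, plus strand: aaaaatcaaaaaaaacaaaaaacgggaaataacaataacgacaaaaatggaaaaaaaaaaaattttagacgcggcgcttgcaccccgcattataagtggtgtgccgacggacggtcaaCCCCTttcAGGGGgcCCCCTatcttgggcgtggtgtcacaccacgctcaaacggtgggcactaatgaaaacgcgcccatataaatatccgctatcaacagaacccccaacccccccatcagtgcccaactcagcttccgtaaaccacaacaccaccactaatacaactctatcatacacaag
HXK1, chrVI:255050-255349, minus strand: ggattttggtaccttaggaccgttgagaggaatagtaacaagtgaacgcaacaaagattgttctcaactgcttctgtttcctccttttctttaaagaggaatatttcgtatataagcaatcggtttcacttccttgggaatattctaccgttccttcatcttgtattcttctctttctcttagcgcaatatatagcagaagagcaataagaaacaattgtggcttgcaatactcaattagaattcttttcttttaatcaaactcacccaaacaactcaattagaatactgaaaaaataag
A match is a description of the letters and not a bound site. The promoter of *MIP6* held none of the 6 motifs searched in this work.

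Among the best known members, *HSP12* (*YFL014W*), a membrane-protecting small protein, had 30.5, 7.31 and 15.97 CPM in *mip6Δ* and 39.2, 24.5 and 56.7 CPM in WT. Its strains overlapped at one library, *mip6Δ* replicate 1, and the difference was −1.16 ± 0.34 (SE, edgeR, adjusted p = 0.46). *HXK1* (*YFR053C*), a hexokinase gene that glucose represses, had 394, 222 and 331 CPM in *mip6Δ* and 702, 502 and 770 CPM in WT, without overlap (−1.06 ± 0.39, adjusted p = 0.72). *GLK1* (*YCL040W*), the glucokinase gene, had 491, 478 and 486 CPM in *mip6Δ* and 837, 657 and 833 CPM in WT, again without overlap (−0.68 ± 0.30, adjusted p = 0.76). *GLK1* overlaps the reading frame *YCL042W*, so reads there may be shared. *DDR2*, a stress gene of unknown function, was low, with 6.09, 4.03 and 5.54 CPM in *mip6Δ* and 11.7, 6.83 and 13.8 CPM in WT. *HSP26*, a small heat shock protein, had 37.5, 26.1 and 24.02 CPM in *mip6Δ* and 46.7, 49.1 and 44.1 CPM in WT. Both genes were without overlap. *GPP2*, a glycerol phosphatase, had 129, 115 and 152 CPM in *mip6Δ* and 164, 194 and 173 CPM in WT (−0.42 ± 0.13). *TFS1*, a carboxypeptidase Y inhibitor, and *YGP1*, a secreted glycoprotein of the cell wall, did not overlap either (−0.54 ± 0.22 and −0.53 ± 0.22). *HOR7*, a small protein gene induced by high osmolarity, had 191, 148 and 186 CPM in *mip6Δ* and 222, 231 and 296 CPM in WT (−0.51 ± 0.13, adjusted p = 0.42). The catalase gene *CTT1* differed least among those named, at 26.5 ± 3.75 CPM in *mip6Δ* and 30.6 ± 4.90 CPM in WT (SD, n = 3 each).
Of the genes for the 2 factors themselves, *MSN2* had 166, 166 and 171 CPM in *mip6Δ* and 153, 174 and 186 CPM in WT. *MSN4*, itself a gene that stress induces, had 69.7, 60.8 and 94.1 CPM in *mip6Δ* and 101, 86.8 and 141 CPM in WT, with an overlap (−0.55 ± 0.19, adjusted p = 0.63).

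Most genes for trehalose and glycogen, the storage carbohydrates of yeast, also had lower values in *mip6Δ*, and none passed the adjusted test (edgeR on all 36 libraries, DESeq2 and limma each called 0). Of 17 genes, 16 had a difference below 0 (48.6% of all genes), 8 did not overlap and were lower (5.12%), and 4 were lower at an unadjusted p under 0.05 (3.59%), with a median of −0.35. In the fit to the 6 libraries alone, 10 had such a p and were lower (3.08% of all genes). With the replicate number as a block in that fit, added after seeing the data, 5 members were called, all lower (33 of 5886 over all genes). The count of 4 was 0 without WT replicate 3, 1 without *mip6Δ* replicate 2 or WT replicate 1, 2 without *mip6Δ* replicate 3, and 5 without *mip6Δ* replicate 1 or WT replicate 2. Without replicate 1, 2 or 3 of both strains it was 12, 1 and 0, against 368, 181 and 64 of all genes. The median was −0.53 without *mip6Δ* replicate 1. Differences were largest for *GPH1* and *GSY1*, on the glycogen side. *GPH1*, glycogen phosphorylase, had 37.3, 29.6 and 45.8 CPM in *mip6Δ* and 65.1, 51.2 and 118 CPM in WT (−1.05 ± 0.35, SE, edgeR, adjusted p = 0.62). *GSY1*, a glycogen synthase, had 65.2, 40.3 and 48.9 CPM in *mip6Δ* and 129, 67.2 and 109 CPM in WT. Its isozyme *GSY2* had 124, 101 and 125 CPM in *mip6Δ* and 168, 144 and 204 CPM in WT. *PGM2*, phosphoglucomutase, which feeds both routes, had 69.1, 52.9 and 56.2 CPM in *mip6Δ* and 120, 81.3 and 122 CPM in WT. These 4 genes did not overlap between the strains. The trehalose synthase genes did: *TPS1* had 449, 344 and 330 CPM in *mip6Δ* and 570, 423 and 479 CPM in WT, *TPS2* differed by −0.44 ± 0.29, and *TSL1*, a regulatory subunit, had 778, 435 and 333 CPM in *mip6Δ* and 1199, 643 and 609 CPM in WT (−0.67 ± 0.49, adjusted p = 0.93). The trehalases *NTH1* and *ATH1*, which break trehalose down, were without overlap at small differences of −0.24 ± 0.18 and −0.19 ± 0.17. Enzymes of synthesis and of breakdown lay on the same side.

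For Hsf1 targets the strains overlapped throughout. Of 25 chaperone genes, 0 were called by edgeR, DESeq2 and limma, and limma did not test *SSA4* and *BTN2*. A difference below 0 was found in 21 (48.6% of all genes), but 0 did not overlap and 0 had an unadjusted p under 0.05 (edgeR), and the median was −0.09. That median was −0.36 without *mip6Δ* replicate 1 and 0.13 without WT replicate 1, so its direction rested on single libraries. *SSA1* and *SSA2*, abundant Hsp70 genes that are 96.4% identical in sequence, differed by −0.18 ± 0.43 and −0.03 ± 0.32, and *HSP82*, the stress-induced Hsp90, by −0.13 ± 0.54. These SEs go with the wide spread among libraries of 1 strain described above.

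**Figure D4:**
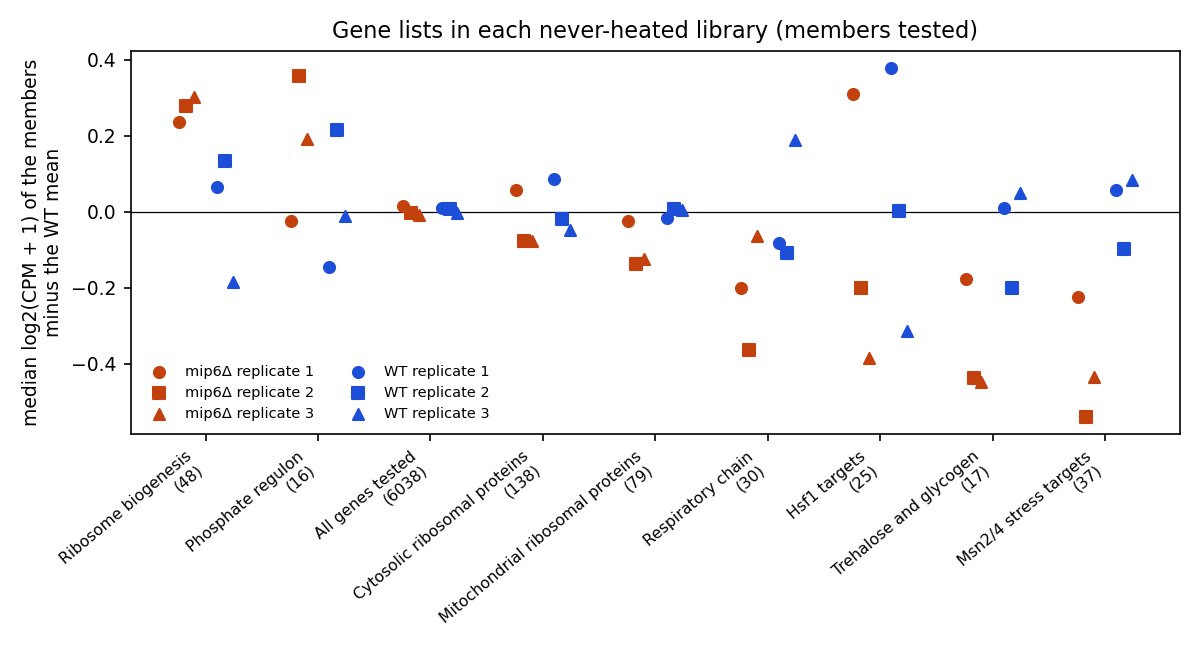
Gene lists in each never-heated library. The vertical axis is the median over the members of log2(CPM + 1) minus the WT mean of each gene, points are libraries with *mip6Δ* left of WT, and the number of members tested stands under each list. Msn2/4 targets lie at −0.54 to −0.23 in *mip6Δ* and −0.10 to 0.08 in WT, while Hsf1 targets overlap between the strains and are highest in replicate 1 of both.

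Glucose uptake genes mostly had lower values in *mip6Δ*, with a wide spread. There were 0 calls by edgeR on all 36 libraries, DESeq2 and limma, and limma did not test *HXT2* and *HXT4*. A fit to the 6 libraries alone with the replicate number as a block, added after seeing the data, called *HXT4*, *HXT6* and *HXT7*, all lower. Over all genes, that fit called 33 of 5886 lower. Of 17 hexose transporters and sensors, 16 were tested, 13 of them with a difference below 0 (48.6% of all genes), and 3 were lower at an unadjusted p under 0.05 (3.59%), with a median of −0.26. That median was −0.17 without WT replicate 1 and −0.40 without WT replicate 2, and 5 members had such a p without WT replicate 2 or 3. *HXT7*, a high-affinity transporter gene that low glucose induces, had 221, 121 and 234 CPM in *mip6Δ* and 707, 226 and 533 CPM in WT (−1.35 ± 0.41, SE, edgeR, adjusted p = 0.51). *HXT6*, 99.8% identical to it, had 212, 117 and 220 CPM in *mip6Δ* and 647, 209 and 489 CPM in WT. Reads of this pair cannot be told apart with certainty, so they count as 1 observation, and their strains overlapped at WT replicate 2. *HXT4*, the third with such a p, had 53.6, 54.3 and 90.2 CPM in *mip6Δ* and 129, 75.8 and 174 CPM in WT. The low-affinity transporters *HXT1* and *HXT3* differed by 0.17 ± 0.20 and −0.16 ± 0.25.

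Ribosome biogenesis genes had higher values in *mip6Δ*, each by a small amount. All 48 had a difference above 0, against 51.4% of all genes, and 24 did not overlap and were higher, against 5.80% of all genes. The median was 0.28 with a range of 0.10 to 0.48, and it was 0.20 without WT replicate 3, the lowest library of this list, and 0.17 without replicate 3 of both strains. edgeR gave an adjusted p under 0.05 to 0 of 48, and an unadjusted p under 0.05 to 0 of 48, in the fit that shares its spread among all 12 groups, and DESeq2 and limma called 0. In the fit to the 6 never-heated libraries alone, 22 of 48 were higher at an unadjusted p under 0.05, against 2.84% of all genes. With the replicate number as a block in that fit, added after seeing the data, 0 members were called. *DRS1*, an RNA helicase of the large subunit, had 164, 169 and 169 CPM in *mip6Δ* and 133, 128 and 101 CPM in WT (0.48 ± 0.33). *NOP7*, a large subunit assembly factor, had 328, 320 and 329 CPM in *mip6Δ* and 283, 277 and 191 CPM in WT. *NOP56*, a core protein of box C/D snoRNPs, had 599, 586 and 627 CPM in *mip6Δ* and 560, 536 and 442 CPM in WT. For these 3 genes the strains did not overlap. *RPA190*, the largest subunit of RNA polymerase I, was without overlap as well, at 446, 502 and 471 CPM in *mip6Δ* and 419, 422 and 334 CPM in WT, while *RPA135*, its second subunit, had 538, 715 and 691 CPM in *mip6Δ* and 503, 576 and 496 CPM in WT and overlapped. *NOP1*, the methyltransferase fibrillarin, overlapped too, at 674, 1020 and 965 CPM in *mip6Δ* and 769, 681 and 773 CPM in WT.

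These genes are known to share a pair of promoter motifs, PAC (GATGAG) and RRPE (AAAATTTT). On either strand of the 300 bases before the coding start, PAC was found in 44 of 48 members (91.7%), against 19.1% of all promoters compared, and RRPE in 38 of 48 (79.2%), against 9.47%. AGGGG was found in 8 of 48 (16.7%). The promoters of *NOP56* and *RPA135* are shown as examples with both motifs in capitals; in *RPA135* the pair of PAC matches, read as CTCATC, overlap.
NOP56, chrXII:545797-546096, plus strand: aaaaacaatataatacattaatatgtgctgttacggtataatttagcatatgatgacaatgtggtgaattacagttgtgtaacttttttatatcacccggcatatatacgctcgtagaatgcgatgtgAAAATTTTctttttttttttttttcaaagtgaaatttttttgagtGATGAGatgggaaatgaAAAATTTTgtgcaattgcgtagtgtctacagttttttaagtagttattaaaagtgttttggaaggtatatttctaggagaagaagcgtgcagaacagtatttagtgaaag
RPA135, chrXVI:581197-581496, minus strand: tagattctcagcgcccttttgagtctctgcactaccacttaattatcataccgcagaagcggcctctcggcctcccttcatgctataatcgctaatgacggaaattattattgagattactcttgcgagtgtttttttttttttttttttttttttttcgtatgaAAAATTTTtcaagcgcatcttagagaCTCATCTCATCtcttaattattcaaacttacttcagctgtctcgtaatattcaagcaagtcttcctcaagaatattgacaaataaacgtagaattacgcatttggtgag
Genes of the cytosolic ribosome itself, which are controlled apart from the assembly factors, were spread around 0. Of 138 tested, 42 were above 0 and 96 below it, against 51.4% and 48.6% of all genes. The median was −0.02, and 0 had an unadjusted p under 0.05 (edgeR).

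Genes for mitochondrial respiration and translation had lower values in *mip6Δ*, by small amounts. Of 30 nuclear genes of the respiratory chain and ATP synthase, 29 had a difference below 0 (48.6% of all genes), 10 were lower at an unadjusted p under 0.05 (3.59%) and 5 did not overlap (5.12%), with a median of −0.19. The count of 10 was 1 without WT replicate 3, which had the highest level of the list, 4 without *mip6Δ* replicate 2 and 15 without *mip6Δ* replicate 3, and it was 5 in the fit to the 6 libraries alone. The median was −0.10 without WT replicate 3 and −0.13 without *mip6Δ* replicate 2. Without replicate 1, 2 or 3 of both strains 12, 5 and 2 members were lower at such a p, against 368, 181 and 64 of all genes. All 4 genes of succinate dehydrogenase, which joins the citrate cycle to the respiratory chain, were without overlap. *SDH1* had 78.5, 82.5 and 96.9 CPM in *mip6Δ* and 109, 98.0 and 148 CPM in WT. *SDH2* had 62.5, 64.7 and 65.9 CPM in *mip6Δ* and 74.2, 75.2 and 107 CPM in WT. *SDH3* and *SDH4* differed by −0.25 ± 0.10 and −0.33 ± 0.12, and the fifth gene without overlap was *COX6*, a subunit of cytochrome c oxidase, at 66.8, 59.5 and 76.0 CPM in *mip6Δ* and 79.4, 76.3 and 93.3 CPM in WT. None of the 30 passed the adjusted test, nor that of DESeq2 or limma (edgeR, adjusted p = 0.62 for *SDH2* and *COX6*).
Mitochondrial ribosomal proteins, a list added after values were seen, were below 0 in 76 of 79 genes (48.6% of all genes), with a median of only −0.09. At an unadjusted p under 0.05, 8 were lower (3.59% of all genes), a count that was 16 without *mip6Δ* replicate 1, 4 without replicate 3 of both strains and 3 in the fit to the 6 libraries alone. *MRP49* (*YKL167C*), of the large mitochondrial subunit, had 20.3, 18.1 and 18.1 CPM in *mip6Δ* and 24.2, 26.1 and 23.7 CPM in WT (−0.39 ± 0.08, adjusted p = 0.061). *MRPS5* (*YBR251W*), of the small subunit, had 29.8, 29.9 and 26.1 CPM in *mip6Δ* and 40.7, 33.9 and 34.1 CPM in WT (−0.34 ± 0.07, adjusted p = 0.061). These 2 genes did not overlap and were among the few closest to the threshold in the whole table.

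Next to *MIP6*, most named genes with a p-value near the top of the table had small differences, the tRNA gene *YNCK0005C* excepted. *AYR1* (*YIL124W*), an enzyme of lipid synthesis, had 100, 106 and 112 CPM in *mip6Δ* and 135, 133 and 167 CPM in WT (−0.45 ± 0.09, SE, edgeR, adjusted p = 0.061). *RSA1* (*YPL193W*), an assembly factor of box C/D snoRNPs and of the large ribosomal subunit, was the highest-ranked single-copy coding gene on the other side, at 46.8, 44.1 and 48.1 CPM in *mip6Δ* and 38.7, 39.2 and 37.5 CPM in WT (0.27 ± 0.06, adjusted p = 0.12). *LYS5*, whose product activates an enzyme of lysine synthesis, had 17.2, 19.8 and 18.01 CPM in *mip6Δ* and 24.8, 22.6 and 23.0 CPM in WT, and *COQ9*, a gene of coenzyme Q synthesis, had 55.7, 61.4 and 60.7 CPM in *mip6Δ* and 69.1, 73.1 and 76.1 CPM in WT. For each of these genes the strains did not overlap. Other genes with a small unadjusted p and no overlap were, on the lower side, *GPM2* (−0.55 ± 0.15) and *YPL277C* (−0.36 ± 0.10). On the higher side they were the nucleoporin gene *NSP1* (0.21 ± 0.06), the transcription factor gene *MET4* (0.19 ± 0.06), the inositol phosphate kinase gene *KCS1* (0.20 ± 0.06), the splicing factor gene *PRP9* (0.28 ± 0.08), the mitochondrial acetyl-CoA carboxylase gene *HFA1* (0.22 ± 0.06), *MTC5*, of the SEA complex (0.18 ± 0.05), the tRNA methyltransferase gene *ABP140* (0.21 ± 0.07) and the uncharacterized *YDL129W* (0.43 ± 0.10). None of them passed the adjusted test. The tRNA gene *YNCK0005C* had the smallest p after *MIP6* (1.71 ± 0.35, adjusted p = 0.061), at only 0.422, 0.547 and 0.658 CPM in *mip6Δ* and 0.163, 0.102 and 0.234 CPM in WT, and it has 15 near-identical copies, as has *SOE1*, so the reads of these genes cannot be placed with certainty. limma on the normalized counts called *AYR1*, *MRP49*, *MRPS5* and *RSA1*, with adjusted p = 0.0028, 0.0028, 0.0048 and 0.023, and also *LYS5* and *YPL277C*. DESeq2 called the first 4 of these as well, with *YBL113C*, *HOR7* and *MIP6*.

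Genes near chromosome ends included 2 named after an earlier look at these data. *YBL113C*, a helicase-like gene of the Y' type with 17 near-identical copies, had 63.2, 74.6 and 59.1 CPM in *mip6Δ* and 50.4, 41.99 and 45.7 CPM in WT, without overlap (0.51 ± 0.11, SE, edgeR, adjusted p = 0.080). *COS8* (*YHL048W*), of a family of membrane proteins that act in endosomal sorting, had 45.5, 65.9 and 64.5 CPM in *mip6Δ* and 81.4, 70.2 and 90.1 CPM in WT, also without overlap (−0.46 ± 0.13, adjusted p = 0.46), and it is 91.5% identical to *YIR043C*. All 11 *COS* genes had a difference below 0 (48.6% of all genes), with a median of −0.19 that was −0.07 without *mip6Δ* replicate 1, −0.11 without WT replicate 3 and −0.28 without *mip6Δ* replicate 3. At an unadjusted p under 0.05, 2 were lower (3.59% of all genes), a count that was 7 without *mip6Δ* replicate 3, 4 without WT replicate 2, 3 without WT replicate 1, and 1 without *mip6Δ* replicate 1 or WT replicate 3. Several *COS* genes are near-identical, *COS2* and *COS3* fully so, and are not independent. Of 228 tested genes within 20 kb of a chromosome end, 6 were higher and 17 lower at an unadjusted p under 0.05, with a median of −0.05. Over all genes 2.52% were higher and 3.59% lower at such a p.

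Genes of mRNA export, decay and deacetylation, with which Mip6 has been linked, showed small differences. Of 9 genes of the *MIP6* family and its named partners, *MIP6* alone was called. *PES4*, its relative, stood at 1.63 ± 0.307 CPM in *mip6Δ* and 1.49 ± 0.373 CPM in WT (SD, n = 3 each). *MEX67* had 176, 172 and 159 CPM in *mip6Δ* and 164, 175 and 164 CPM in WT, and *XRN1*, the main 5′ exonuclease of the cytoplasm, differed by 0.07 ± 0.09. *RRP6*, a nuclear exosome subunit, had 134, 137 and 145 CPM in *mip6Δ* and 120, 123 and 99.4 CPM in WT, without overlap (0.29 ± 0.14, SE, edgeR, adjusted p = 0.81). Of 21 mRNA export factors, 1 was higher and 0 lower at an unadjusted p under 0.05 (edgeR, 0 called), with a median of 0.06. Of 29 mRNA decay factors the counts were likewise 1 and 0, with a median of 0.06. Over all genes 2.52% were higher and 3.59% lower at such a p. Differences were above 0 in 14 export and 22 decay factors, against 51.4% of all genes. Without overlap, 3 export and 2 decay factors were higher (5.80% of all genes) and 1 and 0 lower (5.12%). The 14 genes of the Rpd3 histone deacetylase complexes had a median of 0.02 and 0 with an unadjusted p under 0.05.

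The phosphate regulon had slightly higher values in *mip6Δ*, with 0 calls by edgeR, DESeq2 and limma. Of 16 genes, 13 had a difference above 0 (51.4% of all genes), with a median of 0.18, but 0 were without overlap and 1 was higher at an unadjusted p under 0.05 (2.52%). That count was 7 without WT replicate 2 and 5 without *mip6Δ* replicate 1, and it was 0 without any of the other 4 libraries. The median was 0.07 without *mip6Δ* replicate 2, 0.11 and 0.12 without WT replicate 1 and 3, and 0.27 without *mip6Δ* replicate 1 or WT replicate 2. *PHO84*, the high-affinity phosphate transporter, had 1405, 2348 and 1840 CPM in *mip6Δ* and 1316, 1624 and 1752 CPM in WT, and *PHO5*, the main secreted acid phosphatase, had 235, 510 and 430 CPM in *mip6Δ* and 318, 483 and 414 CPM in WT. Both overlapped between the strains, as did *PHO11* (0.21 ± 0.17) and *PHO12* (0.19 ± 0.18), which are 99.7% identical.

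Whether the strain difference itself depended on heat was tested as a difference of differences. Against recovered cells, edgeR called 0 genes (0%), with 74 (1.23%) at an unadjusted p under 0.05, and DESeq2 and limma called 0. Against the mean of both times of the first heat shock, edgeR called 0 genes (0%), with 261 (4.32%) at an unadjusted p under 0.05, while DESeq2 called 0 and limma 1. The strain difference of *HSP12* was −1.16 ± 0.34 in never-heated cells, 0.16 ± 0.33 and 0.20 ± 0.33 at 15 and 20 min of the first heat shock, and −1.36 ± 0.34 in recovered cells. Its never-heated difference minus that of the first heat shock was −1.34 ± 0.41 (edgeR, adjusted p = 0.79), and that minus recovered was 0.20 ± 0.47 (adjusted p = 1.00). *HXK1* ran in the same order, with −1.06 ± 0.39 never heated, 0.11 ± 0.39 and 0.26 ± 0.39 in the first heat shock and −1.71 ± 0.40 recovered. *MRP49* differed by −0.39 ± 0.08 never heated, −0.01 ± 0.08 and 0.10 ± 0.08 in the first heat shock, and −0.24 ± 0.08 recovered.

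By lists, the median difference of Msn2/4 targets was −0.45 never heated, −0.04 and 0.09 at 15 and 20 min of the first heat shock, −0.52 recovered, and 0.10 and 0.16 at 15 and 20 min of the second. Trehalose and glycogen genes followed with −0.35, −0.02, 0.11, −0.37, 0.08 and 0.15 in the same order of conditions. The recovered values leaned on WT replicate 1, the library with high heat shock genes: without it the recovered medians were −0.27 for Msn2/4 targets and −0.13 for trehalose and glycogen genes, and the number of members lower at an unadjusted p under 0.05 was 7 in place of 18 and 0 in place of 9. For Hsf1 targets the recovered median was −0.75 with that library and 0.06 without it. Ribosome biogenesis genes had medians of 0.28, 0.05, −0.36, 0.16, −0.11 and −0.14 in the same order of conditions.

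**Figure D5:**
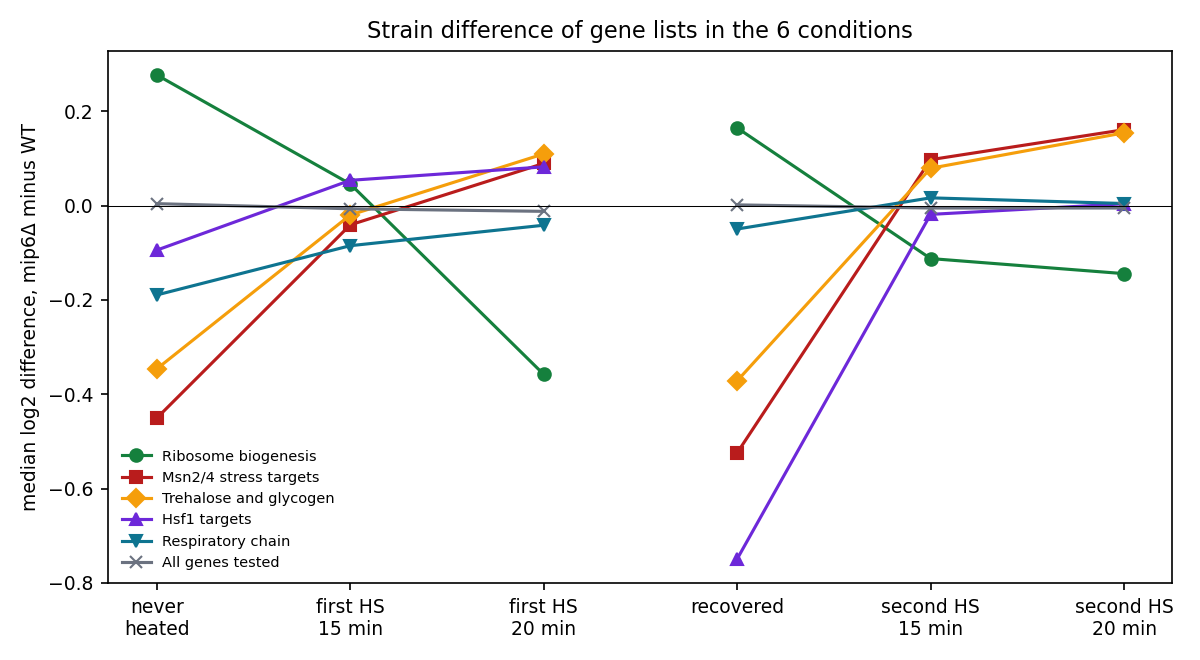
Median log2 difference, *mip6Δ* minus WT, of gene lists in the 6 conditions. The horizontal axis runs from never heated through the first heat shock, recovery and the second heat shock, points are medians over the members tested, and lines join the times of the no-memory and of the memory cells. Never-heated Msn2/4 targets are at −0.45 and ribosome biogenesis genes at 0.28, and all genes tested stay near 0.

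The mean strain difference of the other 5 conditions, which uses other libraries than the never-heated comparison, gave 33 genes at an adjusted p under 0.05 (edgeR, 0.547% of those tested), *MIP6* among them. Of the 32 others, 30 had the same sign in never-heated cells, 24 of 26 that were lower and 6 of 6 that were higher, 14 had an unadjusted p under 0.05 there (6.11% of all genes), and 8 were without overlap (10.9%). Since libraries of 1 strain at several times may be repeat samples of 1 flask or split culture, which the fit takes as independent, these p-values may be too small, and shared signs do not come from independent cultures. *YBL113C* was higher in all 6 conditions, by 0.51 ± 0.11 never heated and 0.46 to 0.61 elsewhere, and its mean in the other conditions was 0.54 ± 0.05 (adjusted p = 4.3e-08). *COS8* differed by −0.46 ± 0.13 never heated and −0.44 ± 0.06 elsewhere (adjusted p = 3.4e-05). *YIR042C*, next to the copy of *COS8* on chromosome IX, had 3.55, 6.57 and 3.48 CPM in never-heated *mip6Δ* and 8.28, 6.96 and 9.12 CPM in WT, without overlap (−0.85 ± 0.28), against −0.94 ± 0.12 elsewhere (adjusted p = 4.8e-05). *IMD2*, an IMP dehydrogenase gene, differed by −0.37 ± 0.30 never heated and −0.77 ± 0.14 elsewhere (adjusted p = 0.0080). *FET3*, the iron oxidase of high-affinity iron uptake, and *GSC2*, a glucan synthase gene, were the exceptions, with 0.08 ± 0.13 and 0.10 ± 0.14 in never-heated cells against −0.31 ± 0.06 and −0.32 ± 0.06 elsewhere. Over the same 5 conditions *HSP12* averaged −0.12 ± 0.15 (adjusted p = 0.76) and *HXK1* −0.22 ± 0.17 (adjusted p = 0.59).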

How the data were processed

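RNA came from 36 aliquots of cultures, and poly-A libraries were made with a stranded kit. Per the submitters' processing notes, FastQC, Trimmomatic, HISAT2 and StringTie were used with the sacCer3 build, and versions were not given in the sources used here. The deposited counts are raw reads per gene as the authors counted them. The authors' normalized counts, deposited as a signal on a linear scale, had passed a NOISeq filter on low counts, TMM and ARSyN, which removes hidden batch effects. Columns of neither table were left unmapped.

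Counts were tested with edgeR 4.0.16 in R 4.3.3 (TMM, filterByExpr, quasi-likelihood, 12 groups, 24 residual degrees of freedom) with Benjamini-Hochberg adjustment over all genes tested and a threshold of 0.05. The SE is the log2 difference divided by the square root of F. limma 3.58.1 on log2(normalized count + 1) and DESeq2 1.42.0 were alternatives. The fit treats the 36 libraries as independent, although aliquots taken at several times may come from 1 flask; p-values measure the spread between these samples. Library totals of 28270651 to 42233578 counts make counting error a limit mainly for genes near or below 1 CPM. Promoters are the 300 bases before the coding start (R64), and copies are blastn 2.17.0 matches of at least 90% identity over 50% of the length. Members and lists were chosen with earlier results of these data known. Named genes are *MIP6*, its 5 neighbours on each side, marker genes, called genes, the genes with the smallest p among those with a mean of at least 10 CPM and no overlap (filled to 10 per direction), called and up to 4 most abundant members of each list, and *PHO5*, *PHO11*, *PHO12*, *COS8* and *YBL113C*. Other genes in the text, such as *HSP12*, *GPH1*, *GSY1*, *DDR2*, *DRS1*, *NOP7*, *SDH1*, *MSN4*, *YIR042C* and *IMD2*, were chosen after their values were seen, as were the motifs PAC and RRPE. Alternatives were another scaling (RLE, library size only), other filters, a replicate block, only the 6 libraries, and leaving out each library. The steps were tested on simulated libraries drawn as independent, with 5 false calls among 5838 unchanged genes.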

Additional observations from a re-analysis of the deposited data

Results flagged for a closer look

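Some lists lay on opposite sides of 0 in all 3 *mip6Δ* libraries of 2 conditions, each taken against the mean of the WT libraries of its condition. The difference was not tested in any of these cases. Msn2/4 targets had a median strain difference of −0.45 in never-heated cells, with single *mip6Δ* libraries at −0.54 to −0.23, against 0.089 at 20 min of the first heat shock and 0.098 and 0.16 at 15 and 20 min of the second. Trehalose and glycogen genes had −0.35 in never-heated cells, against 0.11 at 20 min of the first heat shock and 0.15 at 20 min of the second. Meiosis and sporulation genes, most of them barely expressed here, had −0.15 in never-heated cells and 0.032 at 20 min of the second heat shock. mRNA decay factors had 0.06 in never-heated cells and −0.056 at 15 min of the second heat shock. Single never-heated libraries of the strains overlapped for mRNA decay factors (0.03 to 0.06 in *mip6Δ*, −0.03 to 0.04 in WT). They overlapped too for meiosis and sporulation genes (−0.12 to −0.04, against −0.06 to 0.11) and for trehalose and glycogen genes (−0.45 to −0.18, against −0.20 to 0.05).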

How the results depend on the processing

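In never-heated cells edgeR called 1 gene, *MIP6*. The count was 7 with DESeq2, 2 with library size only, 3 with RLE size factors and 5 without the low count filter. limma on the normalized counts called 18 at a pseudocount of 1 or 0.5, 12 at a pseudocount of 10 and 19 with a mean of at least 10, and against the first heat shock it called 1 gene where edgeR called 0. Leaving out single libraries or replicate numbers gave 1 to 5 calls, with 5 without *mip6Δ* replicate 1, and 2 without WT replicate 1 or without replicate 3 of both strains.

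With the replicate number as a block, 7 genes were called, 3 higher (*YBL113C*, *YNCK0005C* and *RSA1*) and 4 lower (*MIP6*, *AYR1*, *MRP49* and *MRPS5*). A fit to the 6 libraries alone with this block, added after seeing the data, called 35 of 5886 genes, 2 higher and 33 lower. Of the lower genes, 10 were Msn2/4 targets (among them *HXK1*, *GLK1*, *DDR2*, *HSP26*, *TFS1* and *YGP1*), 5 were trehalose and glycogen genes (*GSY1*, *PGM2*, *GPH1*, *TSL1* and *GSY2*) and 3 hexose transporters (*HXT4*, *HXT6* and *HXT7*), and *MSN4* and *YSC84* were called too. Over 5709 genes, replicate number took 58.3% of the variance among the 6 libraries and strain 20.7%, and 21.0% remained. With so few libraries, each factor takes a sizeable share even without an effect, and the shares were not tested. Deviations of same-numbered libraries from their strain means correlated at 0.60, −0.03 and 0.61, and not every library correlated best with its own number. Replicate 2 lay between the other libraries of its strain on the first principal component (−5.13 in *mip6Δ*, 0.45 in WT). The 3 deviations of a strain sum to 0, so a value near 0 for replicate 2 cannot show whether the numbers mark pairs.

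Of 178 named genes, 67 had the other sign under some alternative, none of them a called gene. Scaling by library size alone shifted the median of all genes to 0.02. Depth limits what can be said of genes near or below 1 CPM, and changes under 1.5-fold were not simulated.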

Other observations

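Cell wall genes were below 0 in 26 of 33 cases (48.6% of all genes), with a median of −0.11. At an unadjusted p under 0.05, 2 were lower (3.59% of all genes), and edgeR on all 36 libraries called 0. The fit to the 6 libraries alone with the replicate block called 1, *CWP1* (edgeR, adjusted p = 0.026), against 33 of 5886 genes called lower. *CWP1*, a mannoprotein of the cell wall, had 178, 185 and 278 CPM in *mip6Δ* and 394, 247 and 469 CPM in WT, which overlapped, and limma called it on the normalized counts (adjusted p = 0.038). A further 2 genes of mitochondrial metabolism were called by limma only and were without overlap. *LSC2*, a subunit of succinyl-CoA ligase, had 135, 104 and 129 CPM in *mip6Δ* and 168, 136 and 164 CPM in WT (adjusted p = 0.033). *COX26*, a small protein of cytochrome c oxidase, had 1.93, 1.99 and 1.57 CPM in *mip6Δ* and 5.42, 2.68 and 5.15 CPM in WT (adjusted p = 0.016).

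Other lists stayed near 0, and edgeR called 0 of their genes. Methionine and sulfate genes were above 0 in 19 of 23 cases, against 51.4% of all genes (median 0.08, with 0 at an unadjusted p under 0.05). Histone genes were below 0 in 9 of 10 cases, against 48.6% of all genes (median −0.07, with 1 lower at such a p, against 3.59% of all genes). Proteasome genes (33, median −0.01), ergosterol genes (25, median 0.01), cell cycle genes (25, median 0.003) and genes of the unfolded protein response (15, median −0.02) had 0 at such a p. Genes for amino acid synthesis under Gcn4 had a median of 0.03, with 1 higher and 1 lower at such a p among 42, against 2.52% and 3.59% of all genes. Iron regulon genes had a median of −0.04, with *FIT3*, a cell wall protein of iron uptake, at 58.2, 117 and 51.6 CPM in *mip6Δ* and 149, 131 and 67.0 CPM in WT, which overlapped. DESeq2 called 0 genes of the lists in these 2 paragraphs, and limma 0 beside *CWP1*.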
